A study of Mus musculus with 7 samples.

Results

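The inner mitochondrial membrane carries the respiratory chain, and 90 genes of its nuclear-encoded subunits were followed here across 7 arrays of mouse spleen monocytes. A gene belonged to the group when a probe set with a single symbol matched Nduf, Sdha to Sdhd, Uqcr, Cyc1, Cox4 to Cox8 or Atp5. No filter on level was set, mitochondrially encoded genes were left out, and the probe set brightest on average stood for a gene with several. This gave 90 of the 22180 genes with a single symbol, of which 32 encode subunits of complex I, 8 its assembly factors, 4 subunits of complex II, 8 of complex III, 19 of complex IV and 17 of complex V, while 2 are pseudogenes picked up by their symbols. The symbols sit on 99 probe sets, since 9 members have 2 each. A further 10 probe sets that carry several symbols, such as those of Cox6c and Ndufs6, were left out.

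The study profiled the response of mouse monocytes to antiphospholipid antibody. Monocytes were selected from the spleen of 2 mice, both with wild-type EPCR, the receptor for protein C on endothelium and some leukocytes, and stimulated for 3 h. HL7G, a monoclonal antiphospholipid antibody, was given at 400 ng/ml to cells of mouse 1 and mouse 2. Agonists of endosomal Toll-like receptors went to cells of mouse 1 only, with 1 array each: R848 at 2 µg/ml, which acts on TLR7 in mice, CpG B at 2.5 µM, a DNA that acts on TLR9, and poly I:C at 1 µg/ml, a double-stranded RNA that acts on TLR3. Unstimulated cells of both mice gave the remaining 2 arrays. The method of selection and the time that unstimulated cells spent in culture are not stated in the labels. An IgG condition that the protocol names was not analysed here.

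The respiratory chain moves electrons from NADH and succinate to oxygen and pumps protons across the inner membrane, and ATP synthase spends the proton gradient on making ATP. Complex I oxidises NADH, complex II oxidises succinate and is also an enzyme of the tricarboxylic acid cycle, complex III passes electrons from ubiquinol to cytochrome c, complex IV reduces oxygen, and complex V is ATP synthase. Each complex except complex II joins a few subunits made in the mitochondrion to many made from nuclear genes, and activated macrophages are known for shifting the balance between respiration and glycolysis. Nuclear respiratory factor 1 (NRF1), the ETS-family factor GABP and YY1 are the regulators classically tied to the nuclear subunit genes.

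Each value is the log2 level of a probe set, so a difference of 1 is a 2-fold change, and levels of different genes are not set against each other. Array medians lay between 4.40 and 4.54. A gene was tested when it reached log2 5 on at least 1 array, which 62 of the 90 members did, and 28 stayed under it on all 7 arrays. Of the 62, 19 passed only through stimulated arrays. By that rule at least 1 stimulated array, not always an HL7G array, lay above both unstimulated arrays in each. Counts are therefore also given over all 90. Of 12 monocyte markers, 7 reached log2 5 on at least 1 array, among them Lyz2, Csf1r, Cx3cr1, Spn and Nr4a1. Ly6c2 and Ccr2 stayed under it on all 7 arrays, between 3.74 and 4.38 and between 3.76 and 4.09. The mean level of 9 B cell markers was 6.20 and 6.13 with HL7G and 4.80 and 5.01 in unstimulated cells, and limma called 7 of the 8 tested higher. For 9 T cell markers it was 6.19 and 6.02 with HL7G and 4.998 and 5.17 in unstimulated cells, with 5 of the 8 tested called higher. The 12 monocyte markers averaged 5.15 and 5.05 with HL7G and 4.78 and 4.92 in unstimulated cells, with 1 of the 7 tested called. Of all genes tested, 16.3% were called higher. No tested marker of NK cells, neutrophils, erythroid cells, platelets, red pulp macrophages or dendritic cells was called in either direction. The part of these markers in the results below was not tested. In bulk RNA, fewer cells of a type and less RNA per cell cannot be told apart.

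With HL7G, transcripts for some subunits of each of the 5 complexes were higher than in unstimulated cells. Ndufa6 of complex I rose 4.91-fold, Cox4i1 of complex IV 3.69-fold, Atp5mpl of complex V 3.50-fold, Uqcrh of complex III 2.22-fold and Sdha of complex II 2.10-fold. In limma's test over 11119 genes, 17 of the 62 members tested rose (27.4%), against 16.3% of all genes tested, and 1 fell, Atp5l, against 1.89% of all genes. The median member difference was 0.66, against 0.06 over all genes tested, and 49 of the 62 lay above 0. Without the filter on level, 18 of all 90 members were called higher (20%), against 8.32% of 22180 genes, and none lower, against 1.51%. The median over all 90 was then 0.34, against -0.12 over all genes. In that fit 38 members had an unadjusted p under 0.05, against 28.6% of all genes. The calls in both fits were shared by 16 genes, Ndufa1 and Ndufs8 joined without the filter, and Ndufv2 and Atp5l dropped out.

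The members' excess over all genes was smaller under loess and quantile scaling. Median centring shifts every gene on an array alike, so the members' median had to stay 0.60 above that of all genes tested. There 14 of the 62 were called higher (22.6%), against 13.3% of all genes tested. Under cyclic loess limma called 10 of the 62 higher (16.1%), against 12.3% of all genes tested, and under quantile normalization of the genes tested again 10 (16.1%), against 12.5%. Calls over all genes tested split into 1814 higher and 210 lower as reported, 1372 and 625 under loess, 1394 and 1027 under quantile normalization and 1484 and 409 under median centring. Loess ended the calls of Atp5a1, Atp5b, Atp5k, Cox6a1, Ndufs7, Sdha, Sdhb and Uqcrc1. Quantile normalization ended those of Atp5k, Cox6a1, Cox6b1, Ndufs7, Ndufv2, Sdha and Uqcrc1.

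Bright genes as a whole moved the same way. Among the genes whose mean over all arrays reached 6, limma called 31.2% higher with HL7G, and the members' share was much the same, at 4 of 14 (28.6%). The median difference of those 14 was 0.65, against 0.86 over all 1337 genes of that brightness. Among the 17 members called higher, 7 were under log2 5 on both unstimulated arrays and 10 reached it on at least one. Cytosolic ribosomal protein genes, which are bright in most cells, had a median difference of 0.85 over 71 genes, and 32 of the 60 tested were called higher (53.3%).

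**Figure D1:**
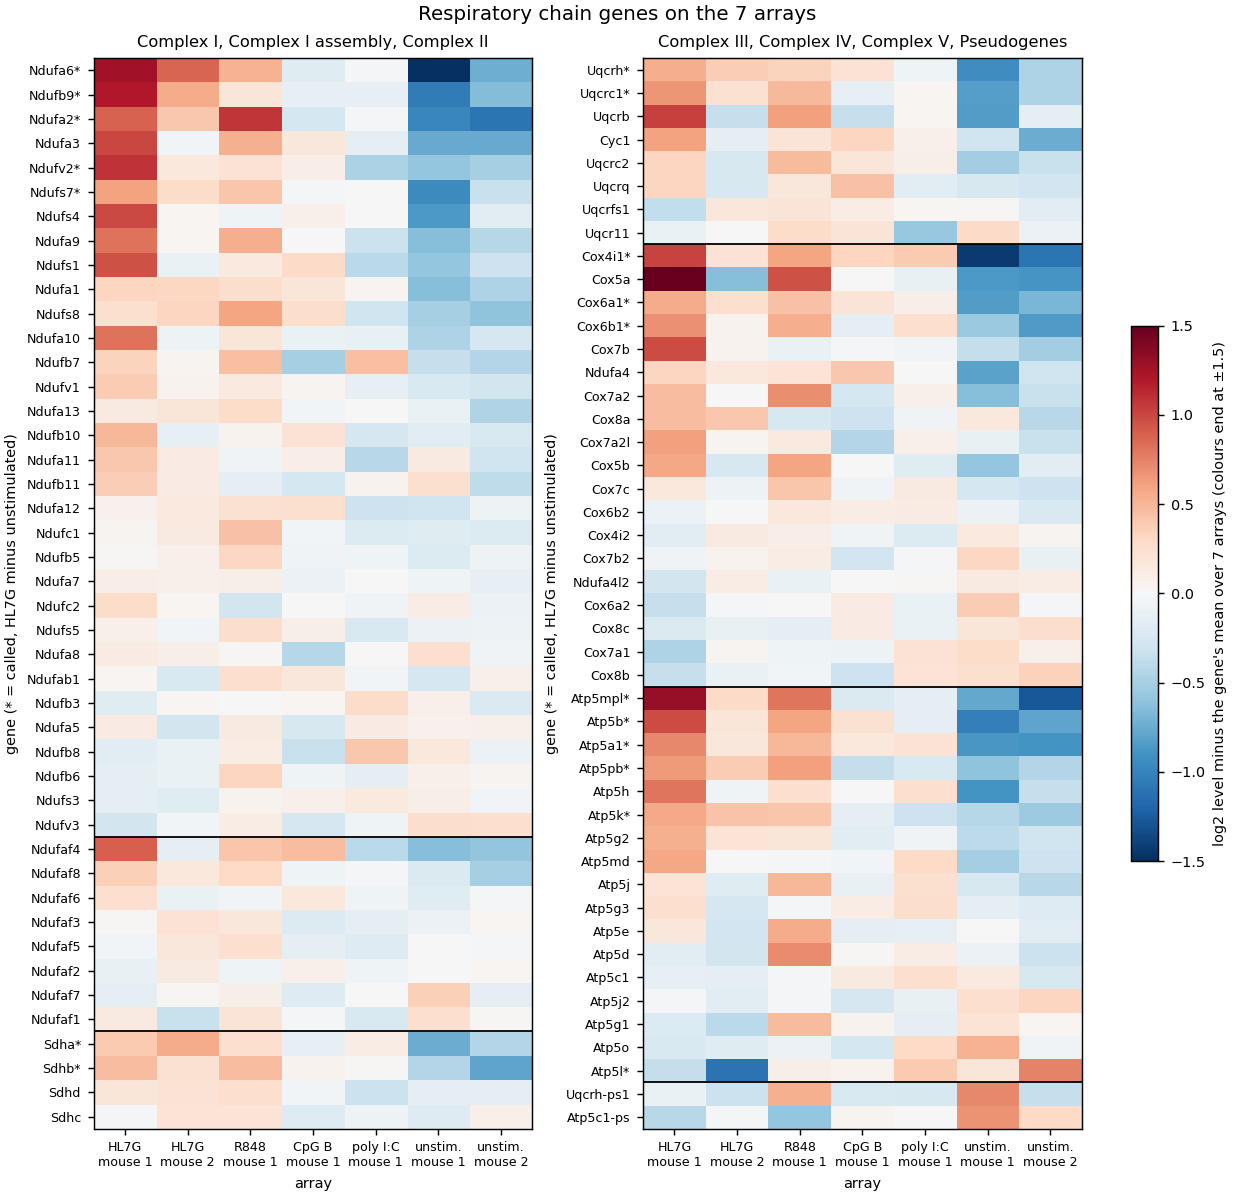
Log2 level of each of the 90 genes minus that gene's own mean over the 7 arrays, in rows by complex, with the HL7G arrays on the left, then R848, CpG B and poly I:C, and the unstimulated arrays on the right. An asterisk marks the 18 genes called between HL7G and unstimulated cells. Most called genes are red on the HL7G array of mouse 1 and on the R848 array and blue on both unstimulated arrays, while Atp5l has the opposite pattern on the HL7G arrays.

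Start regions were read for all members with a promoter on record, called or not. RefSeq's GRCm38.p6 table held the 300 bases from 250 before to 50 after the start of 72 of the 90 members, 12 of the 17 that rose among them. The letters GCGCANGCG, an NRF1 motif, stood on either strand in 20 of the 72 (27.8%), against 12.7% of all genes tested with a promoter in the table. The ETS motif CCGGAAG stood in 19 (26.4%), against 16.8%, and the YY1 motif ATGGCGG in 11 (15.3%), against 8.22%. At least 1 of these 3 motifs was found in 41 of the 72 (56.9%), against 31.5%. Among members that rose it was 10 of 12, and among those tested and not called 20 of 36 (55.6%). Whether these 2 shares differ was not tested. TATAAA was found in 8 (11.1%), against 10.2%. The 6 windows below belong to the 5 called genes in the table with the largest rise, 1 from each of complexes III and V, 1 from complex IV and 2 from complex I, and to Atp5l, the only called fall. They run 5′ to 3′ on the gene's strand, and capitals mark matches to the NRF1, ETS or YY1 letters on either strand.
Ndufa6 (chr15:82354242-82354541, minus strand): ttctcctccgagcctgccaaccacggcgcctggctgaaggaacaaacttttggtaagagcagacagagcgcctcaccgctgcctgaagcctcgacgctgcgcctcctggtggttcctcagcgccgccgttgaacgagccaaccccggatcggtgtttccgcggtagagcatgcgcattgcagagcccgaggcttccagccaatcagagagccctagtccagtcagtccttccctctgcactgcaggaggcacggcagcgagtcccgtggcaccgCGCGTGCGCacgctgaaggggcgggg
Atp5b (chr10:128083057-128083356, plus strand): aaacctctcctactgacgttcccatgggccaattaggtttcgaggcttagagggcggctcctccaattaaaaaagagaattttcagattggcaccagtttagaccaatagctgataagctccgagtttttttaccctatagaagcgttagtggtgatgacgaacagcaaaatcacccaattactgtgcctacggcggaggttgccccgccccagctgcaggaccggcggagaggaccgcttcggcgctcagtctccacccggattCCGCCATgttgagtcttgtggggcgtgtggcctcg
Cox6a1 (chr5:115348909-115349208, minus strand): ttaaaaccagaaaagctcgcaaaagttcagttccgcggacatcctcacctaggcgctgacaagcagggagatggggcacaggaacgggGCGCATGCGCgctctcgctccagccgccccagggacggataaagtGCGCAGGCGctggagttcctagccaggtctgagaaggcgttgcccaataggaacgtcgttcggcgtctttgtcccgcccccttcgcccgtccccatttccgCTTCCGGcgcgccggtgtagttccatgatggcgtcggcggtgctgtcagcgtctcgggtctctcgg
Ndufv2 (chr17:66101510-66101809, minus strand): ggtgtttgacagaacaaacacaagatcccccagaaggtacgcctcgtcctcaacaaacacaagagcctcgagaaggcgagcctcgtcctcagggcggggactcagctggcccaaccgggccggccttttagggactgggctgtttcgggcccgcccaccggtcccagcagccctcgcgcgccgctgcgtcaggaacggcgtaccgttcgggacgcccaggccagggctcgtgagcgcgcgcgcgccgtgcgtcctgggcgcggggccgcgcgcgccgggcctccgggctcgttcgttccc
Uqcrh (chr4:116075021-116075320, minus strand): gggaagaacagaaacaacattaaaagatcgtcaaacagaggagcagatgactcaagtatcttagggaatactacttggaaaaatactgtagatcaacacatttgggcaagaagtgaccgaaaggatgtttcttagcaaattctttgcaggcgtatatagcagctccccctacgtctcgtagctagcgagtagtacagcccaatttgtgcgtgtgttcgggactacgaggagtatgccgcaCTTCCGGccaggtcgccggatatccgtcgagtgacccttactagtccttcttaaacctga
Atp5l (chr9:44920693-44920992, minus strand): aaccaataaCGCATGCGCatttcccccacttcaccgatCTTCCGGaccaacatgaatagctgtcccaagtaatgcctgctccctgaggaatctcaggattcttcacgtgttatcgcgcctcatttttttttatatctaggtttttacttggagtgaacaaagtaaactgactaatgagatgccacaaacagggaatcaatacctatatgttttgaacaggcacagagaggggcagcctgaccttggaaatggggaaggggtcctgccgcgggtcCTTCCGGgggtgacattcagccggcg
The genes that rose do not share 1 layout: Ndufa6 has a single NRF1 match past its start, Atp5b a YY1 match just past its start, Cox6a1 overlapping and single NRF1 matches with an ETS match, and Uqcrh a lone ETS match. Ndufv2 rose with none of these letters in its window, and Atp5l, which fell, has 1 NRF1 and 2 ETS matches. A match of letters is a description of sequence and says nothing of binding.

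Complex I supplied 5 of the genes that rose, of 21 tested and 32 on the array, and its median difference over all 32 was 0.36. The counts by complex stand beside 16.3% of all genes tested called higher, and 31.2% of genes averaging 6 or more. Whether a complex differs from these shares was not tested. Ndufa6, an accessory subunit at the joint of the matrix and membrane arms, had a level of 6.94 and 6.55 with HL7G, 6.20 with R848, 5.50 with CpG B, 5.66 with poly I:C, and 3.95 and 4.94 in unstimulated cells. All 5 stimulated arrays thus lay above both unstimulated arrays, which themselves differed by 0.99. The HL7G difference was 2.30 ± 0.35 (SE, limma adjusted p = 0.0126). Ndufb9, an accessory subunit of the membrane arm, was at 5.85 and 5.22 with HL7G, 4.84 with R848, 4.54 with CpG B, 4.53 with poly I:C, and 3.62 and 4.004 in unstimulated cells. Its difference was 1.73 ± 0.29 (adjusted p = 0.0139), and the HL7G arrays were the highest of the 7. Ndufa2, an accessory subunit of the NADH-oxidising arm, was highest with R848, at 6.15, followed by 5.95 and 5.47 with HL7G, 4.81 with CpG B and 5.04 with poly I:C, against 4.09 and 3.98 in unstimulated cells. Its HL7G difference was 1.68 ± 0.25 (adjusted p = 0.0123).

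Among the core subunits of complex I, which hold the flavin and the iron-sulfur clusters that carry electrons, Ndufv2 and Ndufs7 rose. Ndufv2 had 5.39 and 4.47 with HL7G, 4.52 with R848, 4.41 with CpG B, 3.84 with poly I:C, and 3.74 and 3.81 in unstimulated cells. The poly I:C array was close to the unstimulated arrays, and the HL7G array of mouse 1 stood alone at the top. Its difference of 1.16 ± 0.32 was just inside the threshold (adjusted p = 0.0494) and fell outside it without the filter on level (0.0533). Ndufs7, next to the quinone site, had 6.40 and 6.07 with HL7G, 6.21 with R848, 5.78 with CpG B, 5.79 with poly I:C, and 4.84 and 5.46 in unstimulated cells, a difference of 1.09 ± 0.28 (adjusted p = 0.0388). Its groups did not overlap, although the call ended in the fit blocked on mouse (adjusted p = 0.0509). Ndufs8, another iron-sulfur subunit, stayed under 5 on all arrays, with 4.57 and 4.66 with HL7G and 3.83 and 3.72 in unstimulated cells, and was called in the fit without the filter (adjusted p = 0.0333). Ndufa1, a small accessory subunit, was dim too, with 4.77 and 4.76 with HL7G and 3.81 and 3.99 in unstimulated cells (adjusted p = 0.0310 in that fit).

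Other subunits of complex I did not pass. Ndufv1, which binds NADH, differed by 0.46 ± 0.22 (limma adjusted p = 0.185), and Ndufs1, which carries iron-sulfur clusters, by 0.87 ± 0.36 (0.131), with HL7G arrays at 5.06 and 3.998 and unstimulated arrays at 3.52 and 3.79. Ndufa3, an accessory subunit, came closest, at 1.24 ± 0.35 (adjusted p = 0.0503), with 5.56 and 4.52 with HL7G and 3.81 and 3.80 in unstimulated cells. The lowest values in the complex were -0.41 for Ndufv3, an accessory subunit of the NADH-binding module, and -0.18 for the core subunit Ndufs3. Of the 8 assembly factors, which build complex I and leave it, 3 were tested and none was called, and the median of the 8 was 0.11. Ndufaf4 led with 0.99 ± 0.35 (adjusted p = 0.0895), being at 6.27 and 5.24 with HL7G and 4.74 and 4.78 in unstimulated cells. Ndufaf8 followed at 0.61 and Ndufaf6 at 0.18, and Ndufaf1 and Ndufaf7 were at -0.23 and -0.16.

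In complex II the catalytic subunits rose and the membrane anchors did not pass the test. Sdha, the flavoprotein that oxidises succinate, was at 6.31 and 6.47 with HL7G, 6.16 with R848, 5.79 with CpG B, 6.02 with poly I:C, and 5.17 and 5.48 in unstimulated cells, a difference of 1.07 ± 0.23 (limma adjusted p = 0.0233). Sdhb, its iron-sulfur partner, was at 5.99 and 5.76 with HL7G, 5.99 with R848, 5.58 with CpG B, 5.54 with poly I:C, and 5.08 and 4.73 in unstimulated cells, a difference of 0.96 ± 0.24 (adjusted p = 0.0338). For both genes the lowest stimulated array lay above the higher unstimulated array, and the HL7G difference was close to the same in each mouse, at 1.14 and 1.00 for Sdha and 0.90 and 1.02 for Sdhb. Both lost the call under cyclic loess, at 0.65 for Sdha and 0.75 for Sdhb, and Sdha also under quantile scaling, at 0.72. Sdhc and Sdhd, which anchor the enzyme and bind quinone, differed by 0.15 ± 0.23 and 0.34 ± 0.21 (adjusted p = 0.652 and 0.268). Whether the anchors differ from the catalytic pair was not tested.

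In complex III, 2 of 8 subunits rose, against 16.3% of all genes tested, and the median was 0.61. Uqcrh, the hinge protein that contacts cytochrome c1, had 6.04 and 5.86 with HL7G, 5.84 with R848, 5.72 with CpG B, 5.43 with poly I:C, and 4.57 and 5.04 in unstimulated cells, a difference of 1.15 ± 0.25 (limma adjusted p = 0.0238). Uqcrc1, a core protein on the matrix side, had 6.99 and 6.56 with HL7G, 6.82 with R848, 6.21 with CpG B, 6.36 with poly I:C, and 5.51 and 5.87 in unstimulated cells, a difference of 1.09 ± 0.26 (adjusted p = 0.0301). Neither gene's groups overlapped. Under cyclic loess scaling the Uqcrc1 difference was 0.41 and the call ended (adjusted p = 0.220). The electron-carrying subunits did not pass: Cyc1, cytochrome c1 itself, differed by 0.76 ± 0.31 (adjusted p = 0.133) and Uqcrfs1, the Rieske iron-sulfur protein, by -0.03 ± 0.26 (0.948). Uqcrc2, the partner core protein, stood at 0.47, Uqcr11, a small accessory subunit, at -0.16, and Uqcrb, a ubiquinone-binding subunit, at 0.83 ± 0.46 with mice that disagreed, 1.86 in mouse 1 and -0.20 in mouse 2.

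Complex IV had 3 genes that rose among 11 tested and 19 on the array, against 16.3% of all genes tested, with a median of 0.54. Cox4i1, the common form of a subunit that takes part in regulating the enzyme, stood at 7.66 and 6.87 with HL7G, 7.24 with R848, 6.97 with CpG B, 7.04 with poly I:C, and 5.21 and 5.55 in unstimulated cells. Even the lowest stimulated array, HL7G of mouse 2, was well above the unstimulated arrays, and the HL7G difference was 1.88 ± 0.31 (limma adjusted p = 0.0138). Cox6a1, a subunit near the dimer interface, stood at 7.91 and 7.61 with HL7G, 7.79 with R848, 7.55 with CpG B, 7.44 with poly I:C, and 6.52 and 6.67 in unstimulated cells, a difference of 1.17 ± 0.23 (adjusted p = 0.0191). This direction depends on the scaling: under cyclic loess the Cox6a1 difference was -0.13, and under quantile normalization of the genes tested it was 0.31 and not called. Cox6b1, which joins the monomers of the dimer, stood at 5.64 and 5.01 with HL7G, 5.51 with R848, 4.82 with CpG B, 5.21 with poly I:C, and 4.40 and 4.11 in unstimulated cells, a difference of 1.07 ± 0.28 (adjusted p = 0.0399).

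Cox5a and Cox5b, accessory subunits that sit near the catalytic core, did not pass. Cox5a was at 6.35 and 4.17 with HL7G, 5.78 with R848, 4.81 with CpG B, 4.71 with poly I:C, and 3.95 and 3.93 in unstimulated cells. Both HL7G arrays lay above both unstimulated arrays, yet almost all of the difference lay in mouse 1, 2.40 against 0.24 in mouse 2, and limma gave 1.32 ± 0.62 (adjusted p = 0.172). Cox5b differed by 0.54 ± 0.32 (adjusted p = 0.263), with 1.17 in mouse 1 and -0.09 in mouse 2, and turned to -0.14 under loess and -0.05 under quantile scaling. Ndufa4, a complex IV subunit despite its symbol, differed by 0.79 ± 0.25 (adjusted p = 0.0693), and Cox8a, a small membrane subunit, by 0.57 ± 0.26 (0.163).

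The forms of complex IV subunits known from particular tissues mostly lay below 0. Cox4i2, known from lung, differed by -0.10, Cox6a2 and Cox7a1, the heart and muscle forms, by -0.36 and -0.39, and Cox8b and Cox8c, muscle and testis forms, by -0.51 and -0.38. Ndufa4l2, induced by low oxygen in other cells, stood at -0.21, Cox7b2 at -0.11 and Cox6b2, the testis form, at 0.11. Over these 8 genes the median was -0.28, only Cox4i2 and Cox6a2 reached log2 5, and none was called. The common forms Cox7a2, Cox7a2l and Cox7b differed by 0.72, 0.55 and 0.95 without being called. Genes under the floor as a whole tended below 0. Over all 22180 genes with a single symbol the median was -0.12 and 38.6% lay above 0. For the 11119 genes that reached log2 5 on an array these values were 0.06 and 53.0%. The pseudogenes Atp5c1-ps and Uqcrh-ps1, also under the floor, differed by -0.70 and -0.40. Whether common and tissue forms differ was not tested.

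In complex V, 5 of 15 tested subunits rose and Atp5l fell, against 16.3% and 1.89% of all genes tested, with a median of 0.34 over 17. Atp5b and Atp5a1, the beta and alpha subunits that form the catalytic head, rose together. Atp5b was at 7.27 and 6.48 with HL7G, 6.89 with R848, 6.53 with CpG B, 6.15 with poly I:C, and 5.27 and 5.51 in unstimulated cells, a difference of 1.49 ± 0.30 (limma adjusted p = 0.0210). Atp5a1 was at 6.97 and 6.41 with HL7G, 6.75 with R848, 6.40 with CpG B, 6.46 with poly I:C, and 5.37 and 5.34 in unstimulated cells, a difference of 1.33 ± 0.26 (adjusted p = 0.0190). The unstimulated arrays lay close together in both genes, and every stimulated array was above them. Both lost the call under cyclic loess, at 0.83 and 0.71. Atp5c1, the gamma subunit that turns inside the head, differed by -0.08 ± 0.23 (adjusted p = 0.814).

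Among subunits of the stalk and membrane part, Atp5mpl, a small proteolipid, was dim, at 5.19 and 4.17 with HL7G, 4.70 with R848, 3.67 with CpG B, 3.75 with poly I:C, and 3.12 and 2.62 in unstimulated cells. Its difference was 1.81 ± 0.37 (limma adjusted p = 0.0210), and with a variance trend on the mean level the call ended (adjusted p = 0.205). Atp5pb, subunit b of the outer stalk, was at 5.47 and 5.20 with HL7G, 5.44 with R848, 4.47 with CpG B, 4.60 with poly I:C, and 4.22 and 4.39 in unstimulated cells, a difference of 1.03 ± 0.22 (adjusted p = 0.0241). Atp5k, subunit e, was at 6.36 and 6.21 with HL7G, 6.21 with R848, 5.65 with CpG B, 5.48 with poly I:C, and 5.36 and 5.24 in unstimulated cells, a difference of 0.98 ± 0.21 (adjusted p = 0.0242). The Atp5k difference was 0.63 under loess and under quantile scaling alike, and the call ended in both (adjusted p = 0.0790 and 0.0665). In Atp5pb and Atp5k alike the CpG B and poly I:C arrays lay close to the unstimulated arrays and the R848 array close to HL7G.

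Atp5l, subunit g, which sits beside subunit e where ATP synthase forms dimers, went the other way. Its level was 5.85 and 5.10 with HL7G, 6.30 with R848, 6.26 with CpG B, 6.60 with poly I:C, and 6.40 and 6.96 in unstimulated cells. Both HL7G arrays were the lowest of the 7, while the agonist arrays overlapped or neared the unstimulated ones. It fell by 1.20 on the log2 scale (SE 0.33, limma adjusted p = 0.0462), by 0.54 in mouse 1 and by 1.86 in mouse 2. The call is at the edge of the threshold: it ended without the filter on level (adjusted p = 0.0501) and in the blocked fit (0.0543), while loess and quantile scaling gave -1.80 and -1.73. The genes for subunit c, the proton-carrying ring, were spread on both sides of 0, with 0.71 ± 0.23 for Atp5g2 (adjusted p = 0.0691), 0.17 for Atp5g3 and -0.43 ± 0.22 for Atp5g1 (0.203). Atp5o, the stalk protein that confers oligomycin sensitivity, was at -0.43.

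**Figure D2:**
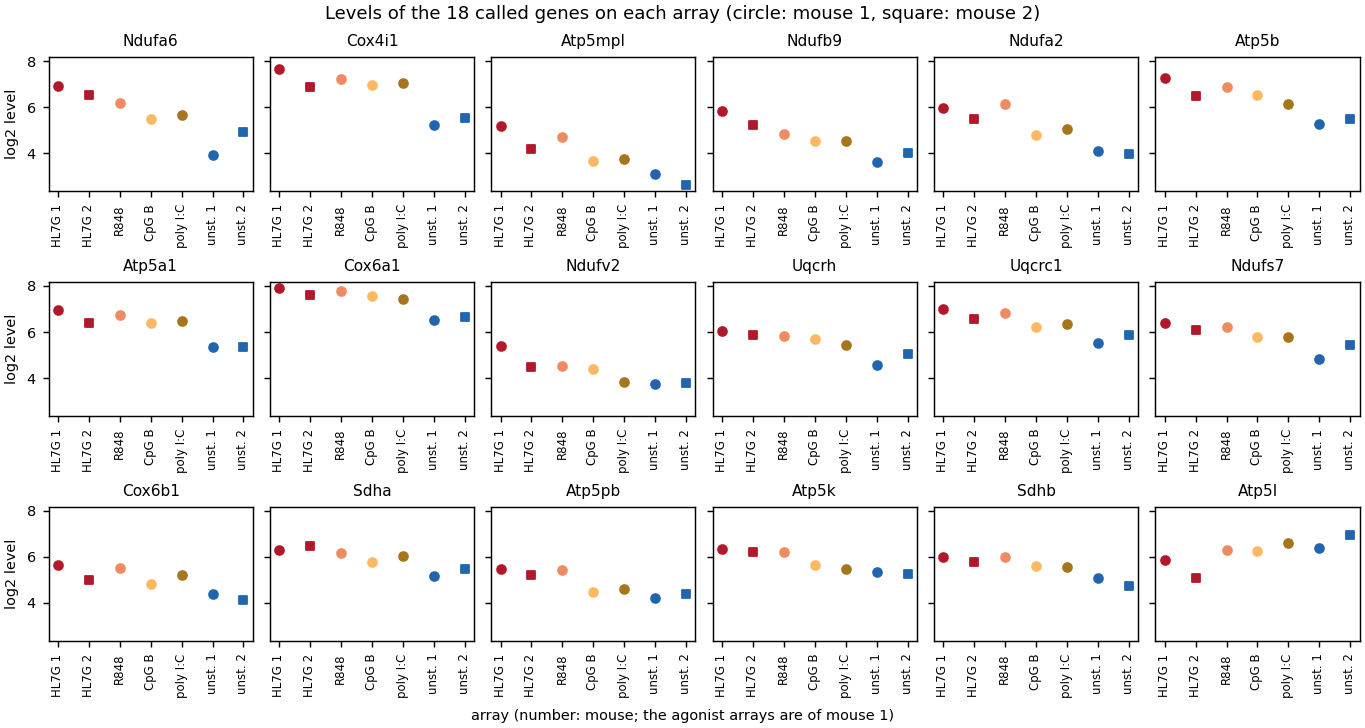
Log2 level of the 18 called genes on each array, 1 panel per gene, with HL7G on the left, then R848, CpG B and poly I:C, and unstimulated on the right; circles are mouse 1 and squares mouse 2. In the 17 genes that rose, both unstimulated arrays are the lowest of the 7, and in Atp5l both HL7G arrays are. The genes were called on these HL7G and unstimulated arrays, so such patterns are partly built in.

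Both mice gave the same sign for most members, with a larger difference in mouse 1. HL7G minus unstimulated was above 0 in both mice for 55 of the 90 members (61.1%), against 29.0% of all genes with a single symbol, below 0 in both for 14 and opposite for 21. The median over the 90 was 0.41 in mouse 1 and 0.22 in mouse 2, and over the 62 tested 0.91 and 0.33, against 0.02 and 0.12 over all genes tested. Genes averaging 6 or more had 1.08 and 0.57. Both HL7G arrays lay above both unstimulated arrays in 49 of the 90 members, against 25.6% of all genes with a single symbol, and in 40 of the 62 tested, against 40.6%. At least a 2-fold higher level in each mouse was seen in 6 members (6.67%), against 4.37% of all genes with a single symbol. Bright genes had such patterns at least as often. Of genes averaging 6 or more, 66.7% were above 0 in both mice. Both HL7G arrays lay above both unstimulated arrays in 64.5% of these bright genes, and 28.6% were 2-fold higher in each mouse. The HL7G array of mouse 1 was the highest of the 7 in 33 of the 62 members tested (53.2%), against 30.5% of all genes tested. The R848 array was the highest in 15 (24.2%, against 11.5%) and the HL7G array of mouse 2 in 2 (3.23%, against 12.4%).

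**Figure D3:**
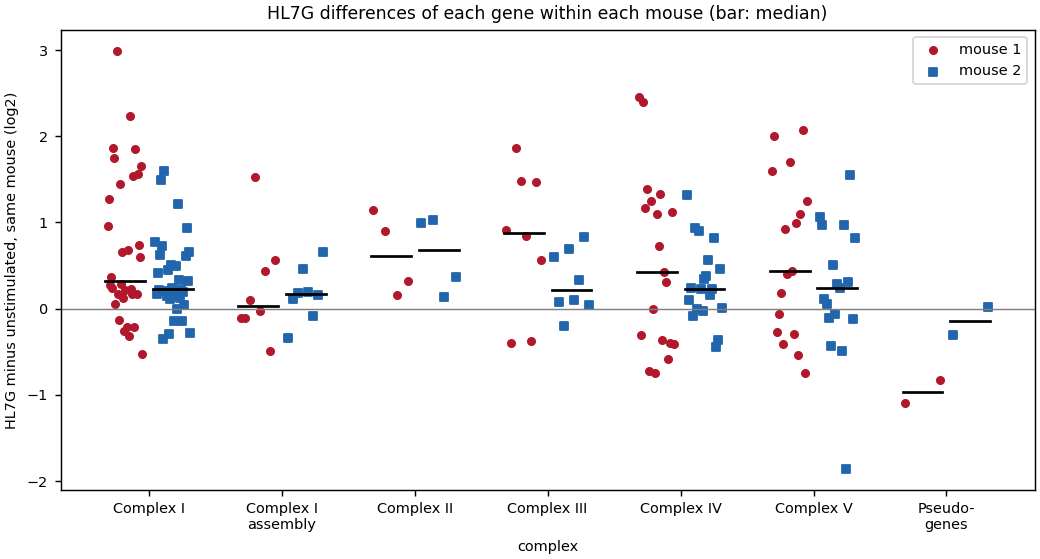
HL7G minus unstimulated within mouse 1 (circles) and within mouse 2 (squares), on the log2 scale, for each of the 90 genes in columns by complex; bars are medians. The circles reach higher than the squares in complexes I, III, IV and V, and the complex II genes lie close together in both mice.

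Leaving out single arrays gave the widest range of calls among the settings tried. With 1 array of a pair left out, the spread comes from the other pair alone, so the error changes as well as the difference. The median SE of the 62 members was 0.34 without an unstimulated array and 0.26 without an HL7G array. Their median difference was 0.61 and 0.66 without the unstimulated array of mouse 1 and of mouse 2. Without the HL7G array of mouse 2, limma called 32 members, all higher, among them Cox5a, Cyc1, Ndufs1, Ndufs4 and Uqcrb (51.6%, against 24.99% of all genes tested). Without the HL7G array of mouse 1 it called 9 higher (14.5%, against 10.999%) and 1 lower, and the median difference of the 62 was 0.37, against 0.88 without that of mouse 2. Without the unstimulated array of mouse 1 limma called no member and 2 of all genes, while 20 members had an unadjusted p under 0.05, against 20.2% of all genes. Without the unstimulated array of mouse 2 it called 4 members higher (6.45%), a share below the 7.35% of all genes. The direction of the 17 genes that rose could not change in these 4 fits. In each of them both HL7G arrays lay above both unstimulated arrays, so the unchanged sign is no separate check.

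R848 gave the members the widest shift among the agonists, and none of them was called. Its median over the 62 tested was 0.69, against 0.09 over all genes tested, and 55 of the 62 lay above 0. The agonist arrays are of mouse 1, while the unstimulated mean is over both mice. With the mouse as a replicate block the medians with R848, CpG B and poly I:C were 0.52, 0.21 and 0.20. Those over all genes tested were then 0.09, 0.04 and 0.02. Limma called 0% of all genes at an adjusted p under 0.05 for R848, CpG B and poly I:C alike, while 28, 9 and 8 of the 62 members had an unadjusted p under 0.05, against 22.9%, 12.3% and 9.48% of all genes. Over all 90 members, without the filter on level, 74 lay above 0 with R848 (82.2%, against 46.4% of all genes), and 34, 16 and 13 had an unadjusted p under 0.05 with the 3 agonists, against 19.0%, 10.8% and 7.89%. With 1 array per agonist, these tests assume that it varies as the HL7G and unstimulated arrays do, and all comparisons with unstimulated cells share the same 2 arrays. With either HL7G array left out of the fit, the spread comes from the unstimulated arrays alone, and R848 then had 17 members called higher, against 11.6% of all genes.

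The members leading with R848 were Ndufa2 at 2.11 ± 0.30 (limma adjusted p = 0.0854), Cox4i1 at 1.86 ± 0.38 (0.0865), Cox5a at 1.83 ± 0.76 (0.212), Atp5mpl at 1.82 ± 0.45 (0.0972) and Ndufa6 at 1.75 ± 0.43 (0.0972). Over all 90 members, at least a 2-fold higher level was seen in 21 with R848 (23.3%, against 6.22% of all genes with a single symbol), in 5 with CpG B (5.56%, against 4.10%) and in 4 with poly I:C (4.44%, against 3.15%). Among genes averaging 6 or more the members' share with R848 was below that of all genes, 5 of 14 (35.7%) against 40.6%.

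By complex, the catalytic subunits of complex II stood above the anchors with R848, with Sdhb at 1.08, Sdha at 0.84, Sdhd at 0.39 and Sdhc at 0.27. The unstimulated arrays are those used for HL7G, so this is no independent repeat. Complex III had the highest median of the complexes, 0.81, and no member below 0. Uqcrc1 at 1.13, Uqcrb at 1.11 and Uqcrh at 1.03 were on top there, and Uqcr11 at 0.17 and Uqcrfs1 at 0.27 at the bottom. In complex I, Ndufa3 at 1.29 followed Ndufa2 and Ndufa6, and the accessory subunits Ndufc2 and Ndufv3 were lowest at -0.29 and -0.14. In complex IV, Cox6b1 at 1.25 followed Cox4i1 and Cox5a, and the muscle and testis forms Cox8b and Cox8c were lowest at -0.34 and -0.35. In complex V the catalytic Atp5b at 1.49 and Atp5a1 at 1.39 followed Atp5mpl, and Atp5l at -0.38 ± 0.40 and Atp5o at -0.32 were lowest. The assembly factors ran from Ndufaf4 at 1.03, Ndufaf8 at 0.66 and Ndufaf5 at 0.26 to Ndufaf7 at -0.02 and Ndufaf2 at -0.07.

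CpG B and poly I:C had smaller medians, 0.29 and 0.30 over the 62 and 0.22 and 0.18 over the 90. Cox4i1 led both, at 1.59 ± 0.38 with CpG B (limma adjusted p = 0.236) and 1.66 ± 0.38 with poly I:C (0.429). With CpG B it was followed by Atp5b at 1.14, Ndufaf4 at 1.08, Ndufa6 at 1.05 and Atp5a1 at 1.04. In complex I, Ndufa3 at 0.92 and Ndufs8 at 0.81 came next, and Ndufa8 and Ndufv3, accessory subunits, were lowest at -0.52 and -0.50. In complex II, Sdhb was at 0.67, Sdha at 0.47, Sdhd at 0.09 and Sdhc at -0.14. All complex III members lay above 0, with Uqcrh at 0.91, Cyc1 at 0.84 and the small accessory subunit Uqcrq at 0.70 on top, and Uqcrb at 0.15 and Uqcr11 at 0.09 at the bottom. In complex IV, Cox6a1 at 0.96 and Ndufa4 at 0.95 followed Cox4i1, and Cox7b2 and Cox8b were lowest at -0.39 and -0.61. In complex V, Atp5mpl at 0.80 followed Atp5b and Atp5a1, and Atp5o at -0.50 and Atp5j2, subunit f of the membrane part, at -0.54 were lowest. Among assembly factors Ndufaf8 at 0.29 and Ndufaf6 at 0.27 came after Ndufaf4, with Ndufaf3 at -0.18 and Ndufaf7 at -0.29 at the other end.

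With poly I:C, Ndufa6 at 1.21, Atp5a1 at 1.10 and Ndufa2 at 1.01 came after Cox4i1, and Uqcr11, the small accessory subunit of complex III, was the lowest of the 62 tested at -0.67. Complex I had the accessory subunit Ndufb7 at 0.84 next to Ndufa6 and Ndufa2, and Ndufv3 and Ndufa11, accessory subunits too, at -0.31 and -0.34 at the bottom. In complex II, Sdha was at 0.70 and Sdhb at 0.63 and the anchors Sdhc at -0.02 and Sdhd at -0.19. This order is no independent repeat of the other stimuli, since the unstimulated arrays are shared. In complex III, Uqcrc1 at 0.67, Uqcrh at 0.63 and Cyc1 at 0.60 were on top, and Uqcrq at 0.09 lay just above Uqcr11 in rank. In complex IV, Cox6b1 at 0.95 and Cox6a1 at 0.84 followed Cox4i1, and the tissue forms Cox4i2 at -0.295 and Cox8c at -0.32 were lowest. In complex V, Atp5mpl and Atp5h, subunit d of the outer stalk, were both at 0.88, and Atp5g1 at -0.27 and Atp5j2 at -0.39 were lowest. Assembly factors ran from Ndufaf8 at 0.32, Ndufaf4 at 0.21 and Ndufaf6 at 0.04 to Ndufaf5 at -0.18 and Ndufaf1 at -0.36. Ndufaf4 had a level of 5.84 with CpG B and 5.79 with R848 and of 4.98 with poly I:C, against 4.74 and 4.78 in unstimulated cells.

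Within mouse 1 the R848 array exceeded the CpG B array in 69 of the 90 members (76.7%), against 53.7% of all genes with a single symbol, and the poly I:C array in 70 (77.8%), against 54.9%. Among genes averaging 6 or more the shares were 64.8% and 67.8%. All 5 stimulated arrays exceeded both unstimulated arrays in 39 of the 90 members (43.3%), against 15.5% of all genes with a single symbol and 54.7% of those averaging 6 or more. All 17 genes called higher with HL7G were among the 39. These single arrays allow no test of R848 against either agonist on replicates.

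Set against the mean of the agonists, HL7G gave no called member, and limma called 0% of all genes. The median over the 62 was 0.18, and 7 had an unadjusted p under 0.05, against 10.8% of all genes. This median depended on which HL7G array was kept: it was -0.03 without that of mouse 1 and 0.39 without that of mouse 2. All agonist arrays are of mouse 1. The value of -0.03 thus sets mouse 2 against mouse 1 and cannot tell mouse from stimulus. With the mouse as a replicate block the median was 0.29. With quantile scaling 31 of the 62 members lay above 0. Ndufa6 led at 0.96 ± 0.32 (adjusted p = 0.397), then Ndufb9 at 0.90 ± 0.26 (0.373) and Ndufv2 at 0.68 ± 0.30 (0.476), and Atp5l was lowest at -0.91 ± 0.30 (0.397). At the lower end of complex I were Ndufs3 at -0.25 and Ndufab1, the mitochondrial acyl carrier protein, at -0.23. In complex V the small membrane subunits Atp5mpl at 0.64 and Atp5k at 0.51 led with Atp5pb at 0.50, and Atp5d, the delta subunit of the central stalk, at -0.49 was next to Atp5l. In complex IV, Cox8a at 0.64, Cox7b at 0.57 and Cox7a2l at 0.40 led, and Cox6a2 at -0.19 and Cox7a1 at -0.24 were lowest. In complex III, Uqcrc1 at 0.31, Uqcrh at 0.29 and Uqcrb at 0.24 led, and Uqcrc2 and Uqcrfs1 were both at -0.21. All 4 complex II members lay above 0, with Sdha at 0.40, Sdhd at 0.24, Sdhb at 0.17 and Sdhc at 0.11. Assembly factors lay between Ndufaf4 at 0.22, Ndufaf8 at 0.19 and Ndufaf3 at 0.17 and Ndufaf7 at -0.03 and Ndufaf1 at -0.07.

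For R848 and CpG B against poly I:C, limma called 0% of all genes, the median was 0.16, and 1 of the 62 members had an unadjusted p under 0.05. Ndufaf4 at 0.84 ± 0.42 and Uqcr11 at 0.80 ± 0.28 led there (adjusted p = 0.9999 for both), and Ndufb8, an accessory subunit of complex I, and Atp5o, at -0.52 and -0.47, were at the other end with Ndufb7, also at -0.47. In complex I the iron-sulfur subunits Ndufs8 at 0.72, Ndufv2 at 0.63 and Ndufs1 at 0.62 were on top. In complex IV, Cox5a at 0.59, Cox5b at 0.47 and Ndufa4 at 0.30 led, and Cox7a1 at -0.29 and Cox8b at -0.38 were lowest. In complex V, Atp5b at 0.56, Atp5k at 0.45 and Atp5mpl at 0.43 led, and Atp5md, subunit k, at -0.33 came just before Atp5o at the bottom. All complex III members lay above 0, from Uqcrq at 0.48 and Uqcrh at 0.34 behind Uqcr11 to Uqcrfs1 at 0.12 and Uqcrb at 0.10. In complex II, Sdhd at 0.43 was above Sdhb at 0.25, Sdhc at 0.08 and Sdha at -0.05. Behind Ndufaf4 the assembly factors ran from Ndufaf1 at 0.31 and Ndufaf5 at 0.24 to Ndufaf2 at 0.07 and Ndufaf7 at -0.06.

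**Figure D4:**
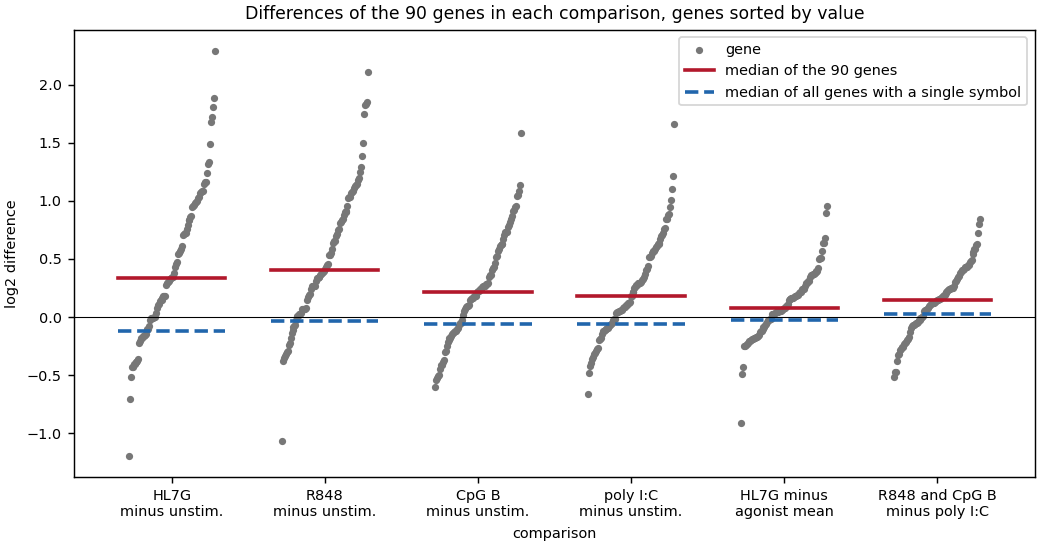
Log2 difference of each of the 90 genes in the 6 comparisons, genes sorted by value within each; the solid bar is the median of the 90 and the dashed bar that of all 22180 genes with a single symbol. The 90-gene median is 0.34 for HL7G and 0.41 for R848, against -0.12 and -0.04 for all genes, and nearer 0 in the other comparisons.

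Other genes of mitochondrial function were read from lists made for this report. The counts stand beside 16.3% of all genes tested called higher and 1.89% lower. Carriers that feed the chain or exchange its products had 4 of 12 tested called higher with HL7G (33.3%) and a median of 0.44 over 13, led by the adenine nucleotide translocator Slc25a5 at 1.61 and the phosphate carrier Slc25a3 at 1.54. Tricarboxylic acid cycle enzymes had 4 of 13 called (30.8%) and a median of 0.72 over 18, with Ogdh, a part of the oxoglutarate dehydrogenase complex, at 1.12 and malate dehydrogenase Mdh2 at 0.99. Protein import had 5 of 18 called (27.8%), among them the outer-membrane receptors Tomm70a at 1.73 and Tomm22 at 1.00. Assembly factors of complexes II to V had 1 of 18 called (5.56%), Coa5 at 1.13, and the mitochondrial ribosome 3 of 47 (6.38%), with Mrpl24 at 1.98, both below the share of all genes.

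Among regulators of the nuclear subunit genes, 2 of 11 tested were called higher (18.2%), close to the 16.3% of all genes tested. Gabpa, the DNA-binding subunit of GABP, was at 6.01 and 5.21 with HL7G, 5.53 with R848, 5.05 with CpG B, 5.25 with poly I:C, and 3.98 and 4.14 in unstimulated cells, a difference of 1.55 ± 0.30 (limma adjusted p = 0.0191). Yy1 was at 7.30 and 6.94 with HL7G, 6.90 with R848, 6.45 with CpG B, 6.46 with poly I:C, and 5.86 and 5.85 in unstimulated cells, a difference of 1.26 ± 0.23 (adjusted p = 0.0168). In Gabpa and Yy1 alike, all stimulated arrays lay above both unstimulated arrays. The same was seen in 27.4% of all genes tested and in 54.7% of genes averaging 6 or more. A link between these regulators and the subunits that rose was not tested. Pprc1, a coactivator of respiratory genes, differed by 1.11 ± 0.46 and was not called (adjusted p = 0.132).

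The mitochondrially encoded partners of these subunits had 6 of 10 called higher with HL7G (60%) and a median of 0.95. With R848 their median was -0.07, where that of the 90 nuclear genes was 0.41, a difference that was not tested.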

How the data were processed

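Levels of 41345 probe sets on 7 Affymetrix Mouse Gene 2.0 ST arrays were used as the authors deposited them, on the log2 scale, with 1 column per array. Per the submitters' processing notes they were made with RMA (background correction, quantile normalization and probe summary), Expression Console and Transcriptome Analysis Console. No version is stated there. Per the labels' protocols, total RNA was isolated with TRIzol and amplified with a GeneChip WT PLUS kit. Probe-level signals were not used here.

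GEO's platform annotation named 23521 probe sets with a single symbol. RefSeq's GRCm38.p6 table held the Entrez identifiers of 23328 of them and changed 0 symbols. The members, roles and lists were chosen with earlier results of these data known. The genes named were the core subunits and isoform families, the called genes, and the 3 highest and 2 lowest members of each complex in each comparison, with a few others singled out after their values were seen, as were the printed promoters. Of the genes that rule lists by name, 1 is not reported here.

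The test was limma 3.58.1 (R 4.3.3), fitted once to the 7 arrays as 5 groups, with moderated variances and 2-sided tests, with Benjamini-Hochberg adjustment over the 11119 genes at log2 5 or more on at least 1 array and calls at an adjusted p below 0.05. Errors are standard errors of this fit. The number of arrays limits the precision: 2 residual and 4.94 prior degrees of freedom, from 2 mice. The fit was tested on simulated data first. A gene that missed the threshold is not shown to be unchanged.

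Array pairs came from the same mouse per the labels. Deviations of mouse 2 from mouse 1 in the HL7G and unstimulated pairs had a correlation of -0.15 across 11119 genes, which are not independent replicates. Alternatives covered the filter on level, loess, quantile and median scaling, a variance trend, averaged probe sets, the mouse as a replicate block, left-out arrays and a fit of the HL7G and unstimulated arrays alone. A promoter motif was counted on either strand in any listed promoter of a gene.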

Additional observations from a re-analysis of the deposited data

Results flagged for a closer look

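Atp5e, the epsilon subunit of the ATP synthase head, has 2 probe sets that disagree. The dimmer one, which does not stand for the gene in the comparisons, had a level of 6.16 and 5.97 with HL7G, 6.15 with R848, 6.16 with CpG B, 6.05 with poly I:C, and 4.81 and 4.72 in unstimulated cells. Its HL7G minus unstimulated difference was 1.30 (limma adjusted p = 0.0287, every probe set tested on its own), with all stimulated arrays above both unstimulated arrays. The probe set used for the gene was at 6.41 and 5.96 with HL7G and 6.23 and 6.06 in unstimulated cells, a difference of 0.04. Which of them reports the transcript was not tested.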

How the results depend on the processing

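For HL7G minus unstimulated, 18 members were called, and the count was 4 among genes averaging 6 or more over the arrays (14 members tested), 11 with cyclic loess and 11 with quantile normalization of the genes tested (10 higher and 1 lower in each). Leaving out 1 array gave 0 to 32: 0 without the unstimulated array of mouse 1, 4 without that of mouse 2, 10 without the HL7G array of mouse 1 and 32 without that of mouse 2. Median centring called 15, the averaged probe sets 19 and the variance trend 18. With the mouse as a replicate block limma called 17, of which 16 were shared with the 18, Ndufa3 joined, and Atp5l and Ndufs7 dropped out; the block changed no other call of a member in this comparison. A crossed block, with the HL7G arrays swapped between mice and chosen after seeing the data, called 22. Loess, quantile and median scaling moved the median of all genes tested by -0.14, -0.18 and -0.13, and relative to all genes the members' median was 0.36, 0.43 and 0.60, against 0.60 as reported. Under median centring this gap could not change, since every gene on an array is shifted alike.

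R848 had 0 members called, against 1 with loess, 5 with quantile scaling, 1 with the variance trend and 0 to 17 with 1 array left out (17 without either HL7G array). CpG B and poly I:C each had 0, and 0 to 1 with 1 array left out. The comparisons of HL7G with the agonists and of R848 and CpG B with poly I:C had 0 under the settings tried. Of the 62 members tested, 9 turned below 0 with HL7G under loess and 9 under quantile scaling, among them Atp5g2, Cox7a2l and Cox8a in both, 2 under median centring, 3 changed sign with averaged probe sets, and 2 to 4 turned with 1 array left out. Among the 28 called or core members followed one by one, directions turned for Cox6a1 (-0.13, loess), Cox5b (-0.14 with loess, -0.048 with quantile scaling), Atp5c1 (between -0.28 and 0.12 with 1 array left out) and Uqcrfs1 (between -0.29 and 0.24). The cause of these changes was not tested, apart from the smaller number of arrays or genes that some settings leave. Counts of calls with 1 array left out also rest on a spread taken from the other pair alone.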

Other observations

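Other probe sets of the respiratory chain genes that were left out of the comparisons also differed from those used. For Ndufa11, an accessory subunit of complex I, HL7G minus unstimulated was -0.41 on the dimmer probe set and 0.34 on the one used, and for Ndufa12, another accessory subunit, -0.46 and 0.29. The probe sets of Atp5g2, a gene for the ring subunit c, gave 0.88 and 0.71 in the same direction. Of the probe sets shared by Ndufs6 and Ndufs6b, one stood at 5.76 and 4.55 with HL7G and 4.13 and 3.89 in unstimulated cells, a difference of 1.14 (limma adjusted p = 0.131), and the other at -0.05. Likewise the probe sets shared by Cox6c and Gm6265 gave 0.75 and -0.05.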
